A study of Homo sapiens with 4 samples.

Results

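AP-1 and immediate early transcription factors were examined in HGC-27 cells with and without a TEAD4-directed peptide. The set held 10 genes, taken by symbol: JUN, JUNB, JUND, FOS, FOSL1, FOSL2, ATF3, EGR1, IER2 and MYC. All 10 were found among the 62443 genes of the expression table. HGC-27 is an established line of undifferentiated human gastric cancer, so every library comes from 1 genetic background. The 4 RNA-seq libraries formed 2 groups of 2. The Con group was untreated according to the sample labels, whereas the methods describe treatment with the peptide's storage buffer. The GLUP group received GLUP at 10 μg/ml, for 12 h in one place of the study's text and for 48 h in another. GLUP is a synthetic macrocyclic peptide derived from the part of the cofactor VGLL4 that binds TEAD4, and was built to drive TEAD4 into condensates. The question put to these genes was whether their RNA levels differed between GLUP and Con, because AP-1 binds beside TEAD at many enhancers.

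AP-1 is a dimer of basic leucine zipper proteins. A JUN protein pairs with another JUN, a FOS protein or an ATF protein, and the partner sets which DNA site is preferred and how strongly transcription is activated. Many AP-1 genes, like EGR1, IER2 and MYC, are immediate early genes: growth factors and stress switch them on through MAP kinases acting on factors already present in the cell, and their mRNAs are short lived. In epithelial cancers AP-1 and the YAP-TEAD complex occupy many of the same enhancers of growth and migration genes.

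Expression was given as FPKM, the fragments of a gene scaled to its length and to the mapped fragments of the library, which allows levels to be compared between genes. FPKM carries no read counts, so the depth is unknown. The column sums ranged from 909735 to 949919 FPKM. The Con libraries resembled each other less than the GLUP libraries did, with Pearson correlations across tested genes of 0.933 and 0.986 on the log2 scale. Con replicate 2 stood apart: its correlations with the GLUP libraries were 0.873 and 0.886, against 0.952 and 0.957 for Con replicate 1. Across the 7588 genes averaging 1 FPKM or more, the GLUP − Con difference followed GC content (Spearman's rho of 0.58 over genes, and genes are no independent replicates). The labelled cell type was only partly visible in its markers. The 6 epithelial markers summed to 3.07 to 6.03 FPKM per library, with EPCAM and CDH1 at most at 0.124 FPKM. KRT8, KRT18 and KRT19 stood between 0.764 and 2.25 FPKM, and CLDN4 at most at 0.164 FPKM. Of the markers of differentiated gastric mucosa, 6 of 7 were at 0 in all libraries. Among the mesenchymal markers, vimentin stood at 293 to 387 FPKM and the others far lower. SPARC stood at 5.27 to 8.67 FPKM, ZEB1 at 2.88 to 19.2 FPKM and FN1 at 0.655 to 3.25 FPKM. CDH2 reached at most 0.0508 FPKM. The 6 fibroblast markers summed to 119 to 125 FPKM, led by LUM. The leukocyte markers summed to 0.528 to 1.52 FPKM, and the 3 endothelial markers found to at most 0.00591 FPKM. The part of these marker levels in the results was not tested.

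The promoters of JUN, JUNB and EGR1 are shown because these were the members whose groups did not overlap, with JUND as the most abundant JUN gene. Each line gives the 250 bases before the annotated start site, 5′ to 3′ on the gene's strand, from RefSeq (GRCh38.p14). The windows lie at chr1:58784048-58784297 (minus strand) for JUN, chr19:12791236-12791485 (plus strand) for JUNB, chr19:18281623-18281872 (minus strand) for JUND and chr5:138465229-138465478 (plus strand) for EGR1. Capitals mark motif matches.
JUN: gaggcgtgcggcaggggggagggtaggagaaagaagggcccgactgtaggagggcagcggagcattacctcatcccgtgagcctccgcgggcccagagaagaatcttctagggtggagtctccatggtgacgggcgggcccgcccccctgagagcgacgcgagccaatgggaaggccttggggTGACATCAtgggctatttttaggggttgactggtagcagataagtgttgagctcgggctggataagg
JUNB: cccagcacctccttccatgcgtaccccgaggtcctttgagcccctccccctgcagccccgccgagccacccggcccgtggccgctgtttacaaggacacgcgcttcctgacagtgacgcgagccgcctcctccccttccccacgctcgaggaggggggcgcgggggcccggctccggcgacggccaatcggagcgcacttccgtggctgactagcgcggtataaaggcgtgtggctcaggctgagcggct
JUND: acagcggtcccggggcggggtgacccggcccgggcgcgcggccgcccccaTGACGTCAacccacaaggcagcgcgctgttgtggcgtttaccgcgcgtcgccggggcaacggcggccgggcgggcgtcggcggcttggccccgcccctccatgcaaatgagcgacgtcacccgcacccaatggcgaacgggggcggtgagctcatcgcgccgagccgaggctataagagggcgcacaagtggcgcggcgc
EGR1: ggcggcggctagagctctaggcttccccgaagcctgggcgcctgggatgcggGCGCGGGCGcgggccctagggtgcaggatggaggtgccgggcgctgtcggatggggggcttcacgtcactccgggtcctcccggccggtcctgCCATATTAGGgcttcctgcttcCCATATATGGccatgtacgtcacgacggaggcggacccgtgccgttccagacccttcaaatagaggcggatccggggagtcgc

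Motifs were searched on both strands in windows of 300 bases (250 before and 50 after the start). An AP-1 site was TGANTCA, a CRE-like site TGACNTCA, a TEAD site GGAATG, an EGR site GCGNGGGCG, and the CArG box, bound by the serum response factor SRF, was searched by its consensus. Promoters of 8 of the 10 members were searched, with 2 for ATF3. MYC and FOSL1 were not among them. A CRE-like site began at position -67 from the start site in JUN (TGACATCA), at -200 in JUND (TGACGTCA) and at -123 in ATF3 (TGACATCA). Among all 35116 promoters, 7.72% held such a site. EGR1 held an EGR site at -198 and 2 CArG boxes, CCATATTAGG at -105 and CCATATATGG at -83, and FOSL2 held the AP-1 site TGACTCA at position 5. An EGR site was present in 9.43% of all promoters, a CArG box in 1.29% and an AP-1 site in 7.71%. These windows of FOS, IER2 and JUNB held no match to the letters searched. None of the 9 member promoters searched held GGAATG, which was found in 14% of all promoters.

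Most of the 10 genes were expressed at low levels in every library. MYC led with a mean of 7.76 FPKM over the 4 libraries, followed by ATF3 at 4.44 FPKM and JUND at 1.37 FPKM. IER2 (0.684 FPKM), JUNB (0.663 FPKM), FOS (0.330 FPKM), FOSL2 (0.261 FPKM), EGR1 (0.192 FPKM), FOSL1 (0.108 FPKM) and JUN (0.0995 FPKM) followed. The library values of MYC, ATF3, JUND and IER2 did not overlap between neighbours in this order, while from IER2 downward every gene overlapped with the next. In all, 6 members stayed under 1 FPKM in every library. Among genes above 0, MYC ranked at the 90.0 to 92.3 percentile and JUND at the 74.8 to 79.2 percentile, depending on the library. In bulk RNA a lower level can reflect fewer expressing cells or less RNA per cell, and these cannot be told apart.

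No member passed the test between GLUP and Con. The test was limma on log2(FPKM + 1) with Benjamini-Hochberg adjustment over all genes, and a gene was called at an adjusted p under 0.05 and over 2-fold. Only MYC, ATF3 and JUND reached a mean of 1 FPKM: 0 of these 3 were called, against 0.0264% of the 7588 genes (2 genes). The other 7 were taken from the same test over the 28873 genes above 0 in any library, where 0% were called. None of the 10 had an unadjusted p under 0.05, a level that 6.37% of the 7588 genes reached upward and 25.4% downward (3.40% and 9.56% of the 28873). In addition, no member passed 2-fold on this scale, which 6.83% of the 7588 genes did upward and 16.3% downward (1.81% and 4.35% of the 28873). The 6 members under 1 FPKM in every library could not pass 2-fold on this scale, and so could not be called. Both GLUP libraries lay above both Con libraries for 1 member, JUNB, and below them for 2, JUN and EGR1. The corresponding shares of the 28873 genes were 13.2% above and 26.5% below, and those of the 7588 genes were 17.5% and 49.7%, so the members' counts were near the background. The split depended on scaling: after quantile normalization 5 members lay above (JUNB, JUND, FOSL2, ATF3 and MYC) and 2 below, and with median-of-ratios scaling, chosen after seeing the data, the same 5 lay above and only EGR1 below. Under quantile normalization 17.9% of the 28873 genes lay above and 20.4% below (29.3% and 34.0% of the 7588), and with median-of-ratios scaling 21.2% lay above and 17.0% below (32.5% and 30.3%).

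Of the JUN proteins, which can form AP-1 with each other or with FOS proteins, JUNB stood highest in GLUP relative to Con. JUNB (ENSG00000171223), often a weaker activator than JUN and an antagonist of it at some promoters, was at 0.536 and 0.0918 FPKM in Con and at 1.19 and 0.838 FPKM in GLUP. Both GLUP values exceeded both Con values, and the Con values themselves differed most, with Con replicate 2 the lowest of the 4. The ratio of the group means was 3.23, from 0.314 ± 0.314 FPKM in Con to 1.01 ± 0.246 FPKM in GLUP (SD, n = 2 each). On the log2(FPKM + 1) scale, which understates the change of low genes, the difference was 0.63 (SE 0.25, adjusted p = 0.417), and it was 0.38 without Con replicate 2. JUNB overlaps HOOK2 on the opposite strand, which stood at 6.04 and 2.81 FPKM in Con and 4.46 and 4.33 FPKM in GLUP. Whether the counting used strand is not given in the sources used here, so reads from the shared stretch cannot be told apart.

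JUN (ENSG00000177606), the founding AP-1 subunit and a target of JNK, was at 0.143 and 0.140 FPKM in Con and at 0.0114 and 0.104 FPKM in GLUP. The GLUP values were the lower ones, but they differed far more from each other than the Con values did, and all 4 were close to 0. The difference was -0.11 on the log2(FPKM + 1) scale (SE 0.067, adjusted p = 0.575), and it was -0.05 without GLUP replicate 1. The ratio of its group means was 0.408. With 0.1 in place of 1 added before taking logs, the differences of these low genes were larger: -0.68 for JUN, 1.65 for JUNB and -1.41 for EGR1, with adjusted p-values of 0.570, 0.442 and 0.390. JUND (ENSG00000130522), the JUN protein that most cells hold at a steady level, was at 1.21 and 1.57 FPKM in Con and at 1.43 and 1.27 FPKM in GLUP. Its groups overlapped, and the difference of -0.02 (SE 0.24, adjusted p = 0.961) was smaller than its error. JUND had the highest GC content of the members, 69.9%, and after removal of the GC trend its difference was -0.69, still short of the test. JUN, JUNB and JUND each have a single exon in the annotation.

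FOS proteins bind DNA only as partners of JUN proteins, and all of the FOS genes were under 1 FPKM. FOS (ENSG00000170345), the classical serum-induced gene, was at 0.605 and 0.143 FPKM in Con and at 0.291 and 0.282 FPKM in GLUP. Both GLUP values thus lay between the Con values, and the log2(FPKM + 1) difference was -0.07 (SE 0.22, adjusted p = 0.867). FOSL1 (ENSG00000175592), which encodes FRA1 and is linked to invasion in many carcinomas, was at 0.168 FPKM and listed at 0 in Con and at 0.0670 and 0.196 FPKM in GLUP. FOSL2 (ENSG00000075426), which encodes FRA2, was at 0.308 and 0.10 FPKM in Con and at 0.339 and 0.299 FPKM in GLUP. Their groups overlapped as well, with differences of 0.06 (adjusted p = 0.763) for FOSL1 and 0.14 (adjusted p = 0.640) for FOSL2. Without Con replicate 2 the difference of FOSL2 was 0.012 and that of FOSL1 -0.048. In all 3 genes Con replicate 2 held the lowest value. FOSB, the remaining FOS gene, was listed at 0 in all 4 libraries.

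ATF3 (ENSG00000162772), a stress-induced partner of JUN proteins that can repress its targets, was the second most abundant member. It was at 5.71 and 2.44 FPKM in Con and at 5.20 and 4.41 FPKM in GLUP. Con replicate 1 was the highest and Con replicate 2 the lowest of the 4, so the Con group spanned both GLUP values. The difference was 0.27 (SE 0.39, adjusted p = 0.643). Its direction rested on the Con library used: it was 0.75 without Con replicate 1 (adjusted p = 0.0435, under 2-fold) and -0.21 without Con replicate 2.

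EGR1 (ENSG00000120738), a zinc finger factor switched on by SRF within minutes of growth factor exposure, was at 0.211 and 0.443 FPKM in Con and at 0.0829 and 0.0315 FPKM in GLUP. Both GLUP values were lower than both Con values, and the ratio of the group means was 0.175, from 0.327 ± 0.163 to 0.0572 ± 0.0364 FPKM (SD, n = 2 each). The log2(FPKM + 1) difference was -0.32 (SE 0.13, adjusted p = 0.417), and it was -0.20 without Con replicate 2. It was the only member besides JUND that was higher in Con replicate 2 than in Con replicate 1. SRF, whose CArG boxes are marked in the EGR1 promoter above, was at 1.04 and 0.776 FPKM in Con and at 0.754 and 0.778 FPKM in GLUP, with overlapping groups (adjusted p = 0.754). IER2 (ENSG00000160888), a small nuclear protein induced together with FOS and EGR1, was at 0.908 and 0.485 FPKM in Con and at 0.588 and 0.755 FPKM in GLUP. Its GLUP values lay between the Con values, with a difference of -0.01 (SE 0.21, adjusted p = 0.983).

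MYC (ENSG00000136997), a factor that drives ribosome production and cell growth as a dimer with MAX, was the most abundant member. It was at 8.88 and 7.15 FPKM in Con and at 8.63 and 6.39 FPKM in GLUP. In both groups replicate 1 was the higher library, and the spread within each group exceeded the difference between the group means of 8.01 ± 1.22 and 7.51 ± 1.59 FPKM (SD, n = 2 each). The difference was -0.09 (SE 0.32, adjusted p = 0.856). The MYC to MAX ratio within a library was 2.50 and 1.95 in Con and 2.17 and 1.98 in GLUP, again overlapping.

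The share of each subunit in its family's summed FPKM does not depend on how a library is scaled. JUNB made up a larger share of the JUN family in GLUP. It gave 28.4% and 5.09% of the summed FPKM of JUN, JUNB and JUND in Con and 45.1% and 37.9% in GLUP, a difference of 24.7 percentage points between the group means. JUND made up the largest part in every library, with 64.0% and 87.1% in Con and 54.5% and 57.5% in GLUP, where both values were below both Con values. The share of JUN was 7.58% and 7.76% in Con and 0.435% and 4.69% in GLUP. The family's sum was 1.88 and 1.80 FPKM in Con and 2.63 and 2.21 FPKM in GLUP. In the FOS family, FOS held 56.0% and 58.9% in Con and 41.8% and 36.3% in GLUP, with groups that did not overlap, of a sum between 0.243 and 1.08 FPKM. The shares of FOSL1 and FOSL2 overlapped. These shares were not tested: the exact permutation test, chosen for single values, has 0.333 as its smallest two-sided p with 2 against 2 libraries. The shares of JUNB and JUND also followed Con replicate 2. The JUNB to JUND ratio was 0.444 in Con replicate 1 and 0.0584 in Con replicate 2, against 0.829 and 0.659 in GLUP. For the shares of FOS and JUN the Con libraries were close to each other.

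**Figure D1:**
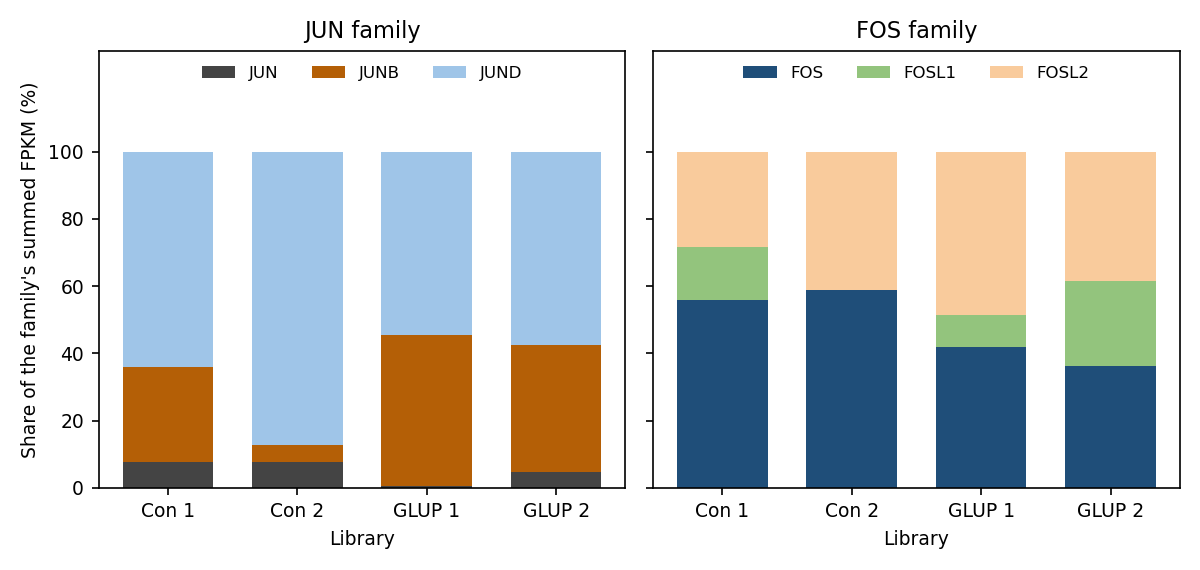
Share of each subunit in the summed FPKM of the JUN family (left) and the FOS family (right), in percent, with 1 stacked bar per library and FOSB left out because it is at 0 in all libraries. JUNB takes 45.1% and 37.9% in GLUP against 28.4% and 5.09% in Con, and FOS takes 41.8% and 36.3% in GLUP against 56.0% and 58.9% in Con.

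The direction of a member's difference was often not fixed by the data. JUNB, JUN and EGR1 kept their sign under every alternative run, as did FOSL2, although its value was 0.012 without Con replicate 2. By contrast, JUND, FOS, FOSL1, ATF3, IER2 and MYC changed sign under at least 1 alternative scaling, model or left-out library. The groups of JUNB, JUN and EGR1 did not overlap, so most of these runs could not reverse their sign. Leaving out a library or changing the pseudocount, replicate block or variance trend could not do so. Only the rescalings and the GC correction could. For MYC, the value ranged from -0.28 without GLUP replicate 1 to 0.32 with median-of-ratios scaling.

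**Figure D2:**
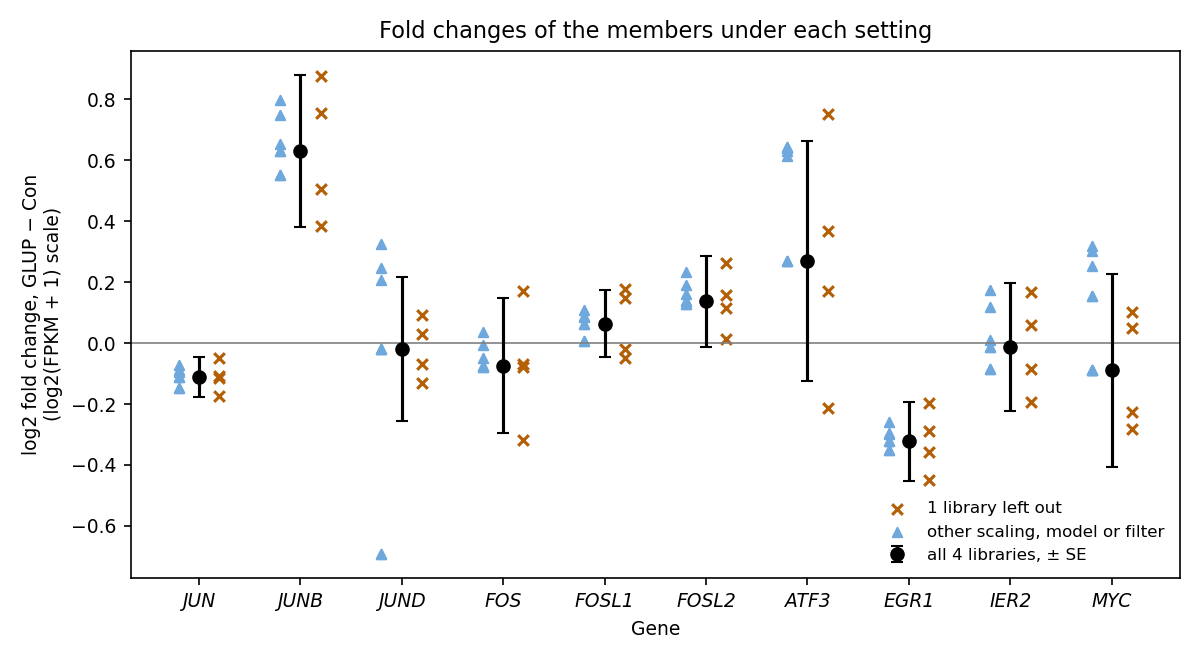
GLUP − Con difference of each member (x axis) on the log2(FPKM + 1) scale, with black points and SE bars for all 4 libraries, orange crosses for fits that leave out 1 library and blue triangles for other scalings, models or filters. With 1 library left out, JUNB runs from 0.38 to 0.88 and EGR1 from -0.45 to -0.20, where their non-overlapping groups fix the sign. The values of ATF3, whose groups overlap, run from -0.21 to 0.75.

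GC content and Con replicate 2 moved with these values. Across the 7588 genes the median difference was -0.36 on the log2 scale. In the highest decile of GC content, where JUNB, JUND and IER2 lie, the median difference was 0.52, and the median of Con replicate 2 minus Con replicate 1 was -0.69. In the 9th decile, which holds JUN, FOSL1 and EGR1, these medians were 0.34 and -0.57, and in the 6th, which holds ATF3 and MYC, they were -0.37 and -0.01. JUNB (0.63) therefore lay near the median of its decile, whereas JUND (-0.02) and IER2 (-0.01) of the same decile lay under it. EGR1 (-0.32) and JUN (-0.11) lay below theirs and ATF3 (0.27) above. Low members have compressed values on this scale, and the medians are those of genes averaging 1 FPKM or more. Of the 10 members, 8 were lower in Con replicate 2 than in Con replicate 1, as were 53.9% of the 7588 genes and 42.5% of the 28873. After the GC trend was removed, JUNB lay above and JUN and EGR1 below, and 0 members were called. For JUNB, JUN and EGR1 that trend was fitted over the 28873 genes, not over the 7588 whose medians are given here. The difference of JUNB became 0.55, so this run cannot show what the trend of the 7588 genes contributed. In this setting 29.8% of the 28873 genes lay above and 25.9% below. The part of GC content in these differences was not tested further.

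Genes around AP-1 and MYC were then read from textbook lists. The counts of list genes above and below Con stand beside shares of 17.5% above and 49.7% below among the 7588 genes. No gene of any list was called with all 4 libraries, whereas 20 of the 80 tested list genes (25%) were called without Con replicate 1 and 9 (11.25%) without Con replicate 2. Among all 7588 genes 35.7% and 13.4% were called in the same fits, so both shares of list genes were below those of all genes. Among the other AP-1 and bZIP genes, 6 of 16 had a mean of at least 1 FPKM, of which 4 lay below Con in both GLUP libraries and 1 above, with a median difference of -0.37, which was -0.63 without Con replicate 2 and -0.22 with the GC trend removed. ATF7, a relative of ATF2 that binds JUN proteins, was at 20.01 and 39.3 FPKM in Con and 5.82 and 6.53 FPKM in GLUP (-2.02, adjusted p = 0.10). NFE2L2, the oxidative stress factor NRF2, followed with -1.34 (adjusted p = 0.110) and ATF2 with -0.39 (adjusted p = 0.360), and MAFG, a small MAF partner, stood at 0.51 (adjusted p = 0.30). The regulators that switch on immediate early genes were mostly below 1 FPKM: 2 of 13 SRF, ternary complex and CREB genes were tested, with a median of -0.49 that was 0.19 with the GC trend removed. CREM, a cyclic AMP responsive relative of CREB, was at 28.0 and 23.4 FPKM in Con and 10.7 and 13.2 FPKM in GLUP (-1.05, adjusted p = 0.112).

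In the MAP kinase cascade, which carries growth and stress signals to these genes, 12 of 26 genes were tested, with 7 below, 2 above and a median of -0.49, which was -0.01 with the GC trend removed. MAP2K2, which encodes the ERK activator MEK2, was at 3.27 and 0.658 FPKM in Con and at 14.2 and 9.80 FPKM in GLUP (2.27, adjusted p = 0.10). RPS6KA1, which encodes the ERK-activated kinase RSK1, stood at 0.35 (adjusted p = 0.383). MAP2K4, which encodes a kinase that activates JNK, was at 1.26 and 2.00 FPKM in Con and at 0.497 and 0.248 FPKM in GLUP (-0.93, adjusted p = 0.103).

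Among other immediate early genes, 13 of 29 were tested, with 5 below, 1 above and a median of -0.37, beside -0.36 for all tested genes. This median was -0.07 without Con replicate 1, and -0.39 with the GC trend removed, where that of all tested genes was 0.00078. GADD45A, a growth arrest gene, was at 7.33 and 9.74 FPKM in Con and 4.32 and 4.22 FPKM in GLUP (-0.84, adjusted p = 0.130). CCN1, a matrix protein that is also a known YAP target, had a difference of -0.70 (adjusted p = 0.130), and RHOB, a small GTPase, one of -0.52 (adjusted p = 0.198). ZFP36L1, which binds and destabilises AU-rich mRNAs, was at 6.41 and 1.53 FPKM in Con and 9.49 and 9.33 FPKM in GLUP (1.27, adjusted p = 0.167). For genes induced by or feeding back on ERK, 4 of 18 were tested, with a median of -0.20 (0.28 with the GC trend removed), and only ETV5 did not overlap between groups (-0.70, adjusted p = 0.226). In the list of AP-1 target genes, 8 of 25 were tested, with 2 below and 0 above and a median of -0.04 (0.09 with the GC trend removed). AXL, a receptor tyrosine kinase, was at 19.3 and 21.9 FPKM in Con and 6.35 and 5.74 FPKM in GLUP (-1.61, adjusted p = 0.10), and PLAUR, the urokinase receptor, had a difference of -0.47 (adjusted p = 0.328).

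Around MYC, 3 of the 14 partner genes found were tested, and all overlapped. Of all 7588 genes, 17.5% lay above and 49.7% below. The MYC target genes were the best expressed list, with 24 of 26 tested. They spread in both directions: 9 lay above and 8 below, with a median of -0.01 (0.19 with the GC trend removed). The highest were EIF4A1, the RNA helicase of translation initiation (1.74, adjusted p = 0.199), SHMT2, the mitochondrial serine to glycine enzyme (1.37, adjusted p = 0.160), and CDK4, the G1 cyclin-dependent kinase (1.14, adjusted p = 0.221). Con replicate 2 held the lowest value in all 3, as for EIF4A1 with 1870 and 295 FPKM in Con and 2479 and 2500 FPKM in GLUP. EIF4A1 shares its strand and sequence with the readthrough gene SENP3-EIF4A1, which was at 0 in both Con libraries and at 7.77 and 35.2 FPKM in GLUP, so the division of reads between them is uncertain. The lowest were NOP58, a core protein of box C/D small nucleolar particles (-1.63, adjusted p = 0.10), EIF4E, the cap-binding factor (-1.58, adjusted p = 0.114), and CCND2, cyclin D2 (-0.91, adjusted p = 0.172). NOP58 was at 179 and 255 FPKM in Con and 69.6 and 67.4 FPKM in GLUP. Of the genes that degrade or stabilise MYC and AP-1 proteins, 8 of 13 were tested, with 5 below, 2 above and a median of -0.64, which was -0.42 without Con replicate 1 and -0.23 with the GC trend removed. COP1, an E3 ligase for JUN, had the lowest non-overlapping value (-1.01, adjusted p = 0.10), followed by PPP2R5A, a phosphatase subunit (-0.85, adjusted p = 0.118), and FBXW7, which targets MYC and JUN for degradation (-0.75, adjusted p = 0.176). The 2 above were SKP2 (0.23, adjusted p = 0.591) and HUWE1 (0.20, adjusted p = 0.571), both parts of ubiquitin ligases that act on MYC.

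TEAD4, the factor that GLUP addresses, was at 1.71 and 0.226 FPKM in Con and at 1.46 and 1.36 FPKM in GLUP. Con replicate 2 was again the lowest library, and the groups overlapped (0.41, adjusted p = 0.490). YAP1, the TEAD coactivator, was at 0.971 and 1.07 FPKM in Con and at 0.228 and 0.638 FPKM in GLUP (-0.51, adjusted p = 0.442), with both GLUP values below both Con values.

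Profiles over the 4 libraries were compared by Euclidean distance after centring each gene on its mean log2(FPKM + 1). The 2 nearest genes to JUND were TRIM56 (distance 0.0566) and POGLUT3 (0.0687). For ATF3 they were SMS (0.0485) and METTL1 (0.0495), and both had their lowest value in Con replicate 2, as ATF3 did. For MYC they were GNG4 (0.0303) and SYS1 (0.0423). With 4 libraries such a likeness rests on few points and carries no test.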

How the data were processed

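Total RNA of HGC-27 cells was sequenced in 4 libraries (2 Con, 2 GLUP), grouped by the treatment given in the labels. The authors deposited FPKM values, 1 row per gene ID. The submitters' processing notes name HISAT2, Cufflinks and RSEM without roles or versions, and GRCh38.p10, whereas the gene IDs have the form GENCODE gives to annotation lifted to GRCh37, so no coordinates were taken from the file. The annotation release and strand setting are not given in the sources used here. Of the gene IDs, 99.55% were matched to symbols. After summing 49 second pseudoautosomal rows with their partners, 62443 genes remained. GC content was read from the longest annotated transcript, and promoters came from RefSeq (GRCh38.p14).

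Values were analysed as log2(FPKM + 1) with limma 3.58.1 in R 4.3.3 (mean-variance trend, Benjamini-Hochberg adjustment), on genes averaging 1 FPKM or more. The 7 members below this filter, and SRF and YAP1, took their values from the fit over the 28873 genes above 0 in any library. FPKM are not counts, so no count test was run. A limma fit and a GC correction of the same form, written separately, were tried on simulated data. Members and gene lists were chosen with earlier results of these data known. Named were all members, up to 3 tested genes at each end of a list among those with non-overlapping groups, the 2 nearest profiles of each tested member, and TEAD4, YAP1 and SRF, except that some genes this rule names are not reported here; overlapping genes and marker genes were named after their values were seen. The methods state at least 2 biological replicates, and nothing ties each library to a separate culture, so p-values may measure technical spread. Alternatives changed the pseudocount, filter, scaling, variance trend, GC trend, replicate block and libraries used.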

Additional observations from a re-analysis of the deposited data

How the results depend on the processing

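With all 4 libraries, 2 genes were called. This count was 1 after centring on medians, after quantile normalization or when 0.1 was added in place of 1, 0 without the mean-variance trend, with the GC trend removed, over all genes above 0 or over genes averaging 5 FPKM or more, and 16 with the GC trend removed together with the replicate block. Leaving out 1 library gave 4 to 2710 genes (2710 without Con replicate 1, 1020 without Con replicate 2). The cause was not tested. Members called stayed at 0 under every alternative, and list genes called ranged from 0 to 20 with 1 library left out. In fits with 1 added and no rescaling or GC correction, no call was possible for the 6 members under 1 FPKM in every library. Members above Con numbered 1, and 2 after centring, 5 after quantile normalization, 5 with median-of-ratios scaling (chosen after seeing the data) and 2 to 6 with 1 library left out. The matching shares of the 28873 genes were 31.0% after centring, 17.9% after quantile normalization, 21.2% with median-of-ratios scaling and 18.8% to 28.0% with 1 library left out. Members below numbered 2, and 1 with median-of-ratios scaling (17.0% of genes) and 2 to 6 with 1 library left out (31.6% to 43.7% of genes). Differences that changed sign were, after centring, quantile normalization and median-of-ratios scaling in that order, 0.32, 0.21 and 0.24 for JUND, 0.011, 0.12 and 0.17 for IER2, and 0.25, 0.30 and 0.32 for MYC. MYC was at 0.16 with the GC trend removed, with or without the replicate block, and FOS at 0.038 with median-of-ratios scaling. With 1 library left out the ranges were -0.13 to 0.091 for JUND, -0.32 to 0.17 for FOS, -0.048 to 0.18 for FOSL1, 0.012 to 0.26 for FOSL2, -0.21 to 0.75 for ATF3, -0.19 to 0.17 for IER2 and -0.28 to 0.10 for MYC. A fit with 1 library in a group assumes that it varies like the other group. The labels tie same-numbered libraries by the number alone. The correlation of their deviations was 0.13, which does not settle whether they were paired. The replicate block called 2 genes and 0 members, with an adjusted p of 0.426 for JUNB. Depth is unknown, so no floor could be set for the members near 0.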

Other observations

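Ratios between members within a library, which need no scaling, also moved with Con replicate 2. The JUN family's summed FPKM exceeded the FOS family's by 1.74 and 7.42 times in Con and by 3.77 and 2.85 times in GLUP. FOS relative to EGR1 was 2.86 and 0.323 in Con and 3.51 and 8.96 in GLUP, so the order of these serum response genes in Con depended on the library. EGR1 relative to IER2 was 0.233 and 0.912 in Con and 0.141 and 0.0418 in GLUP. ATF3 relative to MYC was 0.644 and 0.341 in Con and 0.603 and 0.690 in GLUP. The 10 members summed to 18.7 and 12.6 FPKM in Con and 17.8 and 14.6 FPKM in GLUP, of which MYC made up 47.5% and 56.9% in Con and 48.4% and 43.8% in GLUP.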
